A study of Mus musculus with 24 samples.

Results

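The response of intestinal organoids to mutant p53 alone was read from 8 of the 24 RNA-seq libraries of the study, 4 from colonic (COL) and 4 from small intestinal (SI) organoids. Members were chosen by their labels: all libraries whose genotype holds the conditional p53R172H allele and no conditional BRAF allele. In each tissue, 2 libraries were induced (on) and 2 were not (off). All 8 came from C57BL/6N organoids of the genotype Trp53LSL-R172H/+;Villin::CreERT2. They carried 1 wild-type Trp53 allele, 1 Trp53 allele silenced by a loxP-flanked stop cassette, and a tamoxifen-activated Cre recombinase under the gut epithelial Villin promoter. The on organoids received 4-hydroxytamoxifen (4-HT) for 24 hours, at 3.5 µM in COL and 0.5 µM in SI, and the off organoids received ethanol. RNA was taken 3 days after recombination in COL and 8 days after it in SI. The remaining libraries were 8 of a BRAF culture with a conditional V600E allele and 8 of a BRAFp53 culture with both alleles, treated in the same way. Replicates were duplicates of a culture, so p-values measure the spread between these libraries, which may be technical. No on library lacked a recombined oncogene allele, so effects of 4-HT or Cre and of p53R172H cannot be told apart by the p53 libraries.

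The p53 protein is a transcription factor that is kept low by its inhibitors Mdm2 and Mdm4 and that, when stabilised by DNA damage or oncogenic signals, switches on genes of cell cycle arrest, cell death and DNA repair. R172H changes a residue of the DNA-binding domain, and the mutant protein can block its wild-type partner in mixed tetramers. The intestinal epithelium is renewed from crypt stem cells, and its absorptive cells, the enterocytes of the small intestine and the colonocytes of the colon, carry out digestion, nutrient uptake and lipid export.

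The 8 libraries held 67.2 M to 69.3 M counts in COL and 56.1 M to 68.2 M in SI (M, 1e+06). Levels are given as counts per 1e+06 counts of a library (CPM), scaled within each tissue. The 7 epithelial markers summed to 20900 to 30400 CPM in COL and 8990 to 9470 CPM in SI. The 8 colon markers summed to 14500 to 20100 CPM in COL and to at most 3.48 CPM in SI, where 7 of them were at 0. Markers of stroma, smooth muscle, endothelium and neural cells summed to at most 4.26 CPM per list and those of immune cells to at most 15.2 CPM in any library. The methods name 1 donor mouse per genotype, yet the COL p53 libraries held Ddx3y, a Y-linked gene, at 52.3 to 65.5 CPM and Xist, the transcript of the inactive X chromosome, at up to 0.044 CPM, and the SI p53 libraries held Ddx3y at up to 0.0582 CPM and Xist at 104 to 144 CPM. Per the methods, COL cultures also received Wnt3a and a GSK3 inhibitor in their medium. Tissue, donor animal, culture medium, 4-HT dose and time after recombination therefore cannot be told apart in any comparison of COL with SI.

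Trp53 itself (chromosome 11, 69580359 to 69591873, plus strand, GRCm38) rose in COL and in the mean of both tissues, and was higher in every SI on library. In COL it stood at 222 and 244 CPM in the off and at 449 and 447 CPM in the on libraries, a 1.92-fold higher mean. In SI it stood at 145 and 145 CPM in the off and at 241 and 251 CPM in the on libraries, a 1.69-fold higher mean. The on and off libraries did not overlap in either tissue. The COL change was 0.94 ± 0.13 (log2, SE, n = 2 against 2; adjusted p = 0.02265, edgeR's quasi-likelihood test with Benjamini-Hochberg adjustment). The SI change was 0.76 ± 0.13 with a 95% interval of 0.47 to 1.05, and its adjusted p of 0.1937 in edgeR did not pass the threshold of 0.05. Averaged over both tissues in a joint fit of 24 libraries, the change was 0.87 ± 0.10 (adjusted p = 0.001037, edgeR), and this call held in all 16 alternative fits, apart from a limit on the fold change. In COL alone the adjusted p of Trp53 ran from 1.777e-10 to 0.23 over 11 alternatives, 8 of which called it. The COL and SI changes of Trp53 differed by 0.19 (95% interval -0.22 to 0.60). In the BRAF culture, which has no Trp53 allele to recombine, Trp53 fell from 289 and 285 to 202 and 223 CPM in COL and from 244 and 258 to 183 and 145 CPM in SI. The p53 culture's change exceeded that of the BRAF culture by 1.38 in COL (adjusted p = 0.002885, edgeR) and by 1.37 in SI (adjusted p = 0.000351, edgeR), both on the log2 scale; over all genes, 4.51% and 17.7% differed between the cultures in COL and SI. In the BRAFp53 culture Trp53 rose again, by 0.94 in COL (adjusted p = 0.000623, edgeR) and by 0.52 in SI (adjusted p = 0.02358, edgeR). Gene counts do not separate the mutant from the wild-type transcript.

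**Figure D1:**
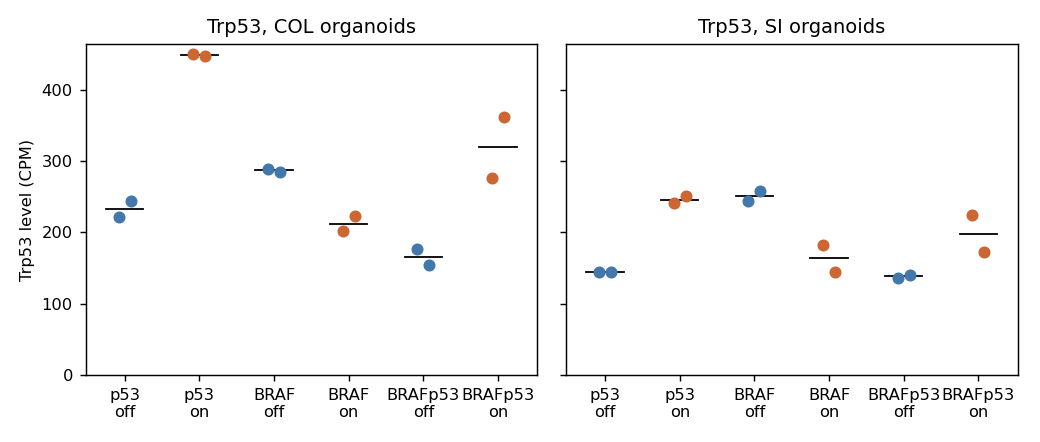
Trp53 level in CPM (linear axis from 0) in each of the 24 libraries, by tissue, culture and state; points are libraries and bars are means of 2. In both tissues the on libraries lie above the off libraries in the p53 and BRAFp53 cultures and below them in the BRAF culture.

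The other genes of the p53 circuit did not pass edgeR's test in either tissue, nor that of limma-voom or DESeq2. DESeq2 also called Trp53 in SI. The loop held 14 genes, of which the filter on low counts left 13 in COL and 12 in SI. Trp53 in COL was the call among them, while over all genes 0.142% were called in COL and 0% in SI. Without adjustment, 4 of them had a p under 0.05 in COL and 2 in SI, Trp53 included (8.34% and 5.18% over all genes). Mdm2, the ubiquitin ligase that degrades p53 and is itself a p53 target, stood at 36.1 and 42.5 CPM off and 55.8 and 42.9 CPM on in COL, and at 21.3 and 24.6 CPM off and 23.1 and 22.5 CPM on in SI. The on and off libraries barely separated in COL and overlapped in SI. Mdm4, its partner, had log2 values of -0.01 in COL and -0.07 in SI. Atm, the kinase that activates p53 after DNA breaks, had a log2 value of -0.40 in COL and -0.17 in SI, neither of which passed the test. Cdkn2a, whose Arf product restrains Mdm2, was measured at 6.26 to 8.52 CPM in COL and at 0 in all 4 SI libraries. Trp63, a relative of p53, was at 0 in the 4 COL libraries.

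None of the established p53 target genes was called by edgeR: 0 of 54 in COL and 0 of 52 tested in SI. At an unadjusted p under 0.05, 6 were higher and 2 lower in COL (8.34% of all genes, both directions) and 1 was higher and 2 lower in SI (5.18%). Limma-voom called none in either tissue (0.195% and 0.00593% of all genes), and DESeq2 called Plk2 higher and Steap3 lower in COL (1.71%) and none in SI (0.386%). With no filter on low counts, edgeR called Steap3 lower in COL (1.87%), Eda2r lower in SI (0.576%), and Pmaip1 higher and Eda2r lower in the mean of both tissues (1.39%). Steap3, Eda2r and Pmaip1 were named after their values were seen. The median change of the whole list of p53 targets was 0.10 in COL and 0.08 in SI on the log2 scale, against 0.0007084 and 0.002786 over all genes tested. The COL median was -0.0001582 without off replicate 1 and 0.05 without on replicate 1, and the SI median was 0.03 without off replicate 1 and 0.004511 without on replicate 1. In COL, 14 of 54 were higher and 8 lower in on than in off libraries without overlap (all genes: 19.4% higher, 19.6% lower), and in SI 13 were higher and 7 lower of 52 (all genes: 18.1% higher, 17.4% lower). Cdkn1a, the cell cycle inhibitor p21 and the best known target, was at 339 and 256 CPM off and 273 and 217 CPM on in COL, and at 163 and 149 CPM off and 204 and 171 CPM on in SI. The COL libraries overlapped, the SI libraries did not, and neither change passed the test. Bax, a pore-forming cell death protein, was at 138 and 158 CPM off and 164 and 156 CPM on in COL and at 114 to 123 CPM in the 4 SI libraries. The smallest unadjusted p in COL was that of Plk2, a kinase of the stress response, at 78.4 and 84.6 CPM off and 114 and 107 CPM on (log2 0.44, adjusted p = 0.16 in edgeR). Phlda3, an inhibitor of Akt signalling, had log2 values of 0.61 in COL and 0.63 in SI, with no overlap of the libraries in either. Neither passed the test.

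In COL organoids, 27 of 18972 genes were called (0.142%), 6 higher (0.0316%) and 21 lower (0.111%) with p53R172H. Of the lower genes, 10 of 21 stood on the lists of absorptive cell genes (lipid handling 3, brush border 4, transport 1, carboxylesterases 2). These lists hold 72 of the 18972 genes tested (0.38%). They were drawn up with earlier results of these data known, so the share is a description and was not tested. Named by what they do, the lower genes included Apoa1, Apoc3 and Hsd17b13 of lipid handling, the brush border peptidases and sugar hydrolase Anpep, Enpep, Naaladl1 and Sis, the citrate and dicarboxylate carrier Slc13a2, and the esterases Ces1d, Ces2e and Aadac. Aadac is not on these lists. Those called lower by edgeR but not by limma-voom included Adora1, Cyp2u1, Plbd1 and Apoc3 (adjusted p = 0.06933, 0.06636, 0.2851 and 0.05679), which were called in 4 of 11, 6 of 11, 5 of 10 and 5 of 11 alternatives without a limit on the fold change. The decreases ran from 2.21-fold for Selenbp1 to 8.34-fold for Plbd1. Plbd1 rested on 145 counts in the off and 18 in the on libraries (ratio 8.24, 95% counting interval 5.03 to 14.3), and its log2 value ran from -4.54 to -2.33 over the alternatives. The number of calls rested on single libraries: it was 0 without off replicate 1, 48 without off replicate 2, 12 without on replicate 1 and 56 without on replicate 2. It was 324 with DESeq2 (1.71%) and 37 with limma-voom (0.195%), and the edgeR test found 1583 genes at an unadjusted p under 0.05 (8.34%).

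Apolipoproteins and lipid droplet proteins package dietary fat for export. Apoa1 (chromosome 9, 46228580 to 46230466), the main protein of high-density lipoprotein, was at 242 and 211 CPM in off and 51.7 and 74.1 CPM in on COL libraries. It fell 3.6-fold (log2 -1.85 ± 0.21 SE; adjusted p = 0.0089, edgeR). Apoc3 (chromosome 9, 46232933 to 46235636), an inhibitor of lipoprotein lipase that lies next to Apoa1, was at 2.83 and 2.65 CPM off and 0.399 and 0.779 CPM on and fell 4.66-fold (adjusted p = 0.04563, edgeR). Hsd17b13, a lipid droplet enzyme, was at 45.2 and 37.7 CPM off and 9.37 and 13.1 CPM on and fell 3.68-fold (adjusted p = 0.0089, edgeR). In each of the 3 genes every on library lay below every off library. Apoa4 (chromosome 9, 46240696 to 46243459), the third apolipoprotein of this stretch, stood at 0.748 and 1.27 CPM off and 0.236 and 0.17 CPM on, and its adjusted p of 0.22 in edgeR missed the threshold. Npc1l1, the cholesterol uptake receptor, was at 5.22 and 1.4 CPM off and 0.738 and 0.184 CPM on (adjusted p = 0.13, edgeR). Of the 22 lipid handling genes, edgeR called 3 lower and none higher (0.111% and 0.0316% over all genes); 19 had a value below 0 (49.4% over all genes, with 50.1% above 0) and 13 did not overlap between on and off, all lower (19.6% over all genes). DESeq2 called 8 lower (1.71% called over all genes) and edgeR with no filter on low counts 10 (1.87%), Apoa4 and Npc1l1 among both, while limma-voom called 2 (0.195%). The list median was -0.55 on the log2 scale, and -0.29 without COL off replicate 1.

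The brush border is the microvillar surface where digestion ends. Sis, sucrase-isomaltase, was at 47.2 and 48.2 CPM in off and 11 and 13 CPM in on COL libraries and fell 3.99-fold (adjusted p = 0.04563, edgeR). Anpep, aminopeptidase N, was at 245 and 204 CPM off and 87 and 85.6 CPM on and fell 2.60-fold (adjusted p = 0.02265, edgeR). Enpep, glutamyl aminopeptidase, was at 93.1 and 85.3 CPM off and 22.7 and 36 CPM on, and Naaladl1, a further peptidase, was at 36.5 and 39.8 CPM off and 9.9 and 18 CPM on. All 4 separated on from off without overlap. Of 23 brush border genes, edgeR and limma-voom called 4 lower (over all genes, 0.111% called lower by edgeR and 0.195% called by limma-voom). DESeq2 called 7 lower and edgeR with no filter 9 (1.71% and 1.87% called over all genes). In that list 21 had a value below 0 (49.4%) and 16 were lower without overlap (19.6%), with a median of -0.57. Myo1a, the microvillar motor, was at 639 and 661 CPM off and 576 and 437 CPM on (log2 -0.36), and the structural proteins Vil1, Espn and Eps8 had log2 values of -0.08, -0.08 and 0.09. None of these 4 passed the test.

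Among 16 nutrient and ion transporters, edgeR and limma-voom called 1 lower, DESeq2 8 and edgeR with no filter on low counts 9 (1.71% and 1.87% called over all genes). All 16 had values below 0, with a median of -0.67; 13 were lower without overlap. Over all genes, edgeR called 0.111% lower, limma-voom called 0.195% in either direction, 49.4% lay below 0 and 19.6% were lower without overlap. Slc13a2, a carrier of citrate and dicarboxylates, was at 96 and 95 CPM off and 35 and 31.2 CPM on and fell 2.89-fold (adjusted p = 0.04563, edgeR). Slc5a1, the sodium-coupled glucose carrier, was at 293 and 282 CPM off and 200 and 196 CPM on, with an adjusted p of 0.13 in edgeR. Slc40a1, the iron exporter ferroportin, was at 279 and 262 CPM off and 143 and 142 CPM on, with an adjusted p of 0.15 in edgeR. Both separated on from off and missed the threshold in edgeR and limma-voom, while DESeq2 and edgeR with no filter called both lower.

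Carboxylesterases hydrolyse drugs and acylglycerols, and all 11 tested members had values below 0 in COL, with a median of -0.92 and 10 lower without overlap. EdgeR and limma-voom called 2 lower, DESeq2 3 of 11 and edgeR with no filter 6 of 12. Over all genes, limma-voom called 0.195%, DESeq2 1.71% and edgeR with no filter 1.87%, in either direction. The other shares over all genes were 49.4% below 0, 0.111% called lower by edgeR and 19.6% lower without overlap. Ces1d was at 36.5 and 29.7 CPM off and 10 and 9.77 CPM on and fell 3.34-fold (adjusted p = 0.0089, edgeR). Ces2e was at 492 and 443 CPM off and 220 and 198 CPM on and fell 2.24-fold (adjusted p = 0.02692, edgeR). Members of this family share sequence, so reads may be split between copies. Aadac, a related deacetylase of the endoplasmic reticulum, was at 12.6 and 10.3 CPM off and 3.5 and 2.77 CPM on and fell 3.65-fold (adjusted p = 0.0089, edgeR). Otc, the urea cycle enzyme that makes citrulline in enterocytes, was at 52.6 and 29.6 CPM off and 10.4 and 12.8 CPM on (adjusted p = 0.02265, edgeR). Cyp2u1, a fatty acid hydroxylase, was at 3.29 and 3.34 CPM off and 1.25 and 0.595 CPM on (adjusted p = 0.04563, edgeR). Among the other lower genes were Selenbp1, a selenium-binding methanethiol oxidase, at 1850 and 1620 CPM off and 865 and 708 CPM on, and H2-Q10, a class I histocompatibility gene, at 89.3 and 68.2 CPM off and 26.9 and 32.8 CPM on. The remaining ones were Adora1, Akr1c14, Plbd1, Ppp1r3b, Smim24 and 2610528A11Rik, the last named after its values were seen. H2-Q10, Akr1c14 and Selenbp1 also have close relatives in the genome.

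Besides Trp53, 5 genes were called higher in COL. Fgf15, the bile acid-induced hormone that lowers bile acid synthesis in the liver, was at 10 and 13.3 CPM off and 43.8 and 35.7 CPM on and rose 3.41-fold (adjusted p = 0.02265, edgeR). Its exons overlap 2 genes of the opposite strand, Gm26793 and Gm39119, and the use of strand in counting was not given. Gsta1, a glutathione transferase, was at 336 and 338 CPM off and 805 and 744 CPM on, and S100g, the calcium-binding protein calbindin-D9k, was at 9.99 and 9.31 CPM off and 17.9 and 24.8 CPM on (both adjusted p = 0.04563, edgeR). Zfp385a, a zinc finger protein known to bind p53, rested on 4 counts in the off and 62 in the on libraries, a ratio of 15.2 (95% counting interval 5.63 to 57.4; adjusted p = 0.04879, edgeR). Without a limit on the fold change, Zfp385a was called in 3 of 10 alternatives and S100g in 5 of 11, and limma-voom called neither (adjusted p = 0.1913 and 0.06933). Fgf15 was called in 9 of 11 and Gsta1 in 8 of 11. E330020D12Rik, a noncoding transcript also named after its values were seen, rested on 8 and 176 counts, a ratio of 21.5 (10.7 to 50.6). These intervals cover counting error only.

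**Figure D2:**
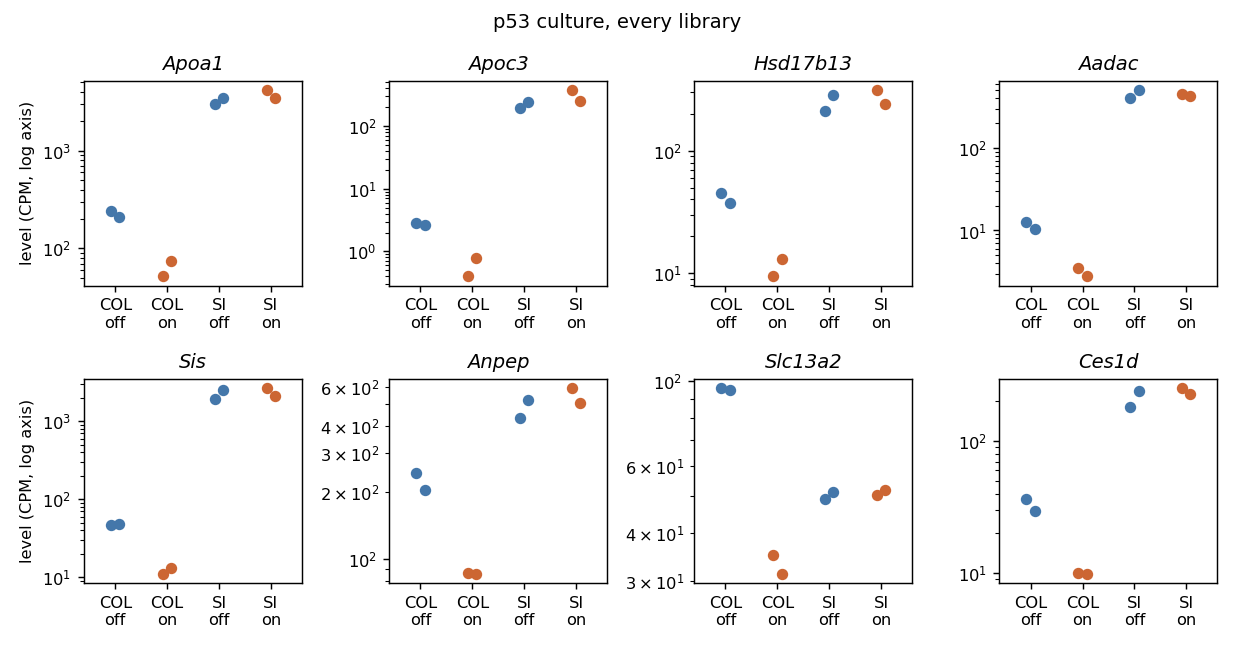
Level in CPM (log axis, different range in each panel) of 8 genes called lower in COL, in the 8 libraries of the p53 culture; blue points are off and orange points on libraries. In each panel both COL on libraries lie below both COL off libraries; Apoa1, for example, goes from 242 and 211 to 51.7 and 74.1 CPM in COL, while the SI libraries stay at 3010 CPM or above.

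In SI organoids no gene was called by edgeR (0 of 16856, 0%). An unadjusted p under 0.05 was reached by 873 genes (5.18%), and the smallest adjusted p was 0.103. The SI call count was 1 with limma-voom, 65 with DESeq2, and 17 when the 4 p53 libraries were fitted alone, of which 1 was higher and 16 lower. Among genes with an average of at least 3 log2 CPM over the 12 SI libraries of all cultures, Trp53 had the smallest unadjusted p of those higher in SI. The next were Pdlim2, a PDZ-LIM protein, at 2.47 and 2.79 CPM off and 6.13 and 4.12 CPM on in the p53 culture (it passed the minimum through the other cultures), and Sprr2a3, a cornified envelope protein, at 46.9 and 44.4 CPM off and 113 and 67.8 CPM on. Among the lower genes, Cyc1, cytochrome c1 of the respiratory chain, was at 320 and 408 CPM off and 177 and 190 CPM on, and Ndufab1, an acyl carrier subunit of complex I, was at 183 and 224 CPM off and 80.8 and 84.4 CPM on. Rps2, a ribosomal protein, was at 1110 and 1310 CPM off and 560 and 548 CPM on. These genes were chosen for their separation, so their values are a description. All 3 lower genes also differed between replicates of a single SI group: in the on libraries of the BRAFp53 culture Cyc1 was at 176 and 269 CPM, Ndufab1 at 83.8 and 164 CPM and Rps2 at 549 and 1010 CPM. Ndufab1 was at 67.1 and 33.9 CPM in the COL p53 off libraries.

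The 27 genes called in COL were all tested in SI, and most stayed near 0 there. The 95% interval of the SI change held 0 for 24 of them, and for 23 of those it also left out the value estimated in COL. Fgf15 was the exception, being at or below 0.104 CPM in every SI library of the p53 culture (it passed the filter through the other cultures). Apoa1 was at 3010 and 3440 CPM in off and 4130 and 3460 CPM in on SI libraries, and Aadac was at 407 and 501 CPM off and 457 and 430 CPM on. Sis was at 1930 and 2490 CPM off and 2660 and 2080 CPM on in SI. The Aadac and Sis libraries overlapped between on and off. The SI interval left out 0 for Trp53, for Apoc3 (0.12 to 0.88) and for 2610528A11Rik, which encodes the GPR15 ligand (0.41 to 1.26). The last 2 fell in COL and had SI values of 0.50 and 0.83, which edgeR with its filter on low counts did not call. With no filter, edgeR called Apoc3 higher in SI (0.576% called over all genes).

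**Figure D3:**
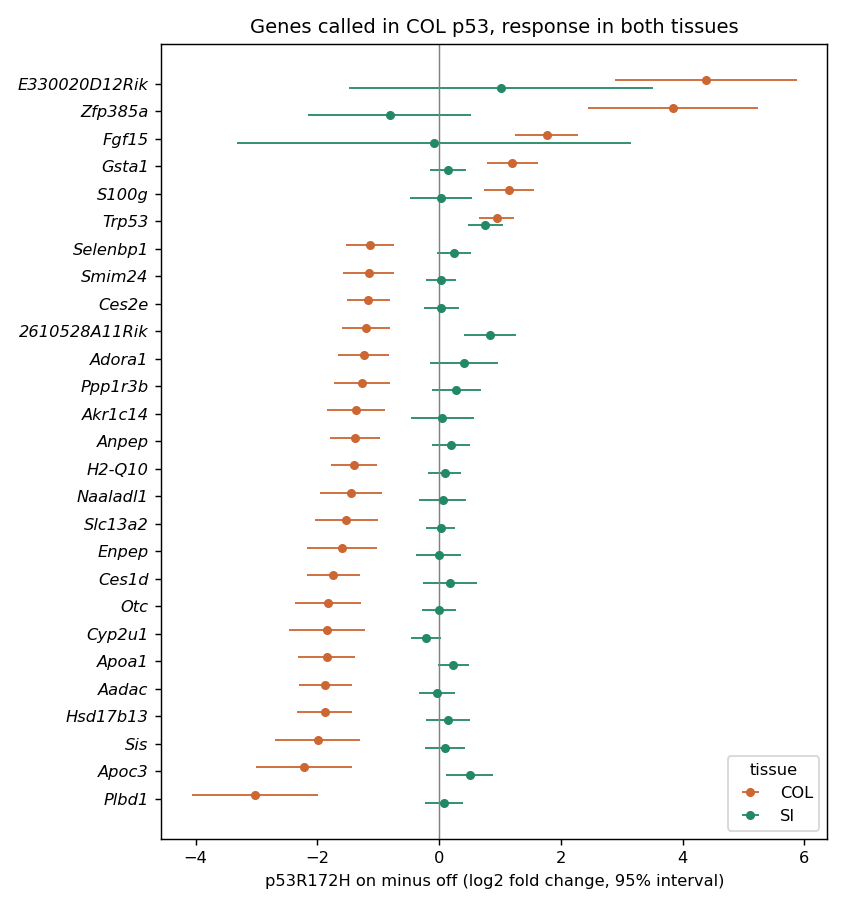
Log2 fold change of on against off, with 95% intervals from edgeR, for the 27 genes called in COL (orange) and for the same genes in SI (green). Trp53 lies right of 0 in both tissues; the 21 genes lower in COL lie between -3.03 and -1.14 in COL, and their SI values lie between -0.22 and 0.83.

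Fitted over both tissues, 7 genes had a mean response past the threshold (0.0356% of 19673), Trp53 higher (0.00508%) and Aadac, Cyp2u1, Otc, Plbd1, Hsd17b13 and Apoa1 lower (0.0305%). A gene was counted as shared when it was called in the mean response, had the same sign in both tissues, and did not overlap between on and off in either. Trp53 and Cyp2u1 met this. With limma-voom, and with only the p53 libraries in the fit, Cyp2u1 did not, and Trp53 alone was left. With DESeq2, 37 genes met it, and with no filter on low counts 105. The number of such genes was 6 without COL off replicate 2, 9 without COL on replicate 1, 7 without COL on replicate 2 and 5 without SI off replicate 2. For Cyp2u1 the SI libraries were at 123 and 133 CPM off and 109 and 112 CPM on, a change of -0.22 whose 95% interval of -0.46 to 0.03 held 0. The remaining 5 had COL changes between -3.03 and -1.82 and SI changes between -0.03 and 0.23. The count of 7 became 3 without COL off replicate 1, 21 without COL off replicate 2, 16 without COL on replicate 1 and 28 without COL on replicate 2. Among the SI libraries, it became 4 without off replicate 1, 3 without on replicate 1 and 4 without on replicate 2.

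The difference between the COL and SI responses was tested as an interaction, and 23 genes passed (0.117%), 2 with the higher value in COL (0.0102%) and 21 with the lower (0.107%). Of these, 16 were also called in COL with the larger change there: Aadac, Anpep, Apoa1, Apoc3, Ces1d, Cyp2u1, H2-Q10, Hsd17b13, Otc, Plbd1, Ppp1r3b, Selenbp1, Sis, Slc13a2 and 2610528A11Rik lower, and Zfp385a higher. The differences were -2.08 for Apoa1 and -1.83 for Aadac (log2, both adjusted p = 0.002402, edgeR), and these 2 were called in all 15 alternative fits without a limit on the fold change. Apoc3 had a difference of -2.71 (adjusted p = 0.002402, edgeR), called in 14 of 15. The other genes of the 16 with a tally were called less often: Zfp385a in 4 of 13, Ppp1r3b in 5, Sis in 7 and Slc13a2 in 8 of 15, Plbd1 in 9 of 14, and the remaining 7 in 10 to 13 of 15. Cyp2u1 meets both definitions, with a larger change in COL (difference -1.63, adjusted p = 0.01479, edgeR). The count of 23 became 7 without COL off replicate 1, 46 without COL off replicate 2, 35 without COL on replicate 2, 9 without SI off replicate 1, 12 without SI off replicate 2 and 3 without SI on replicate 1. The count of 16 became 0 without COL off replicate 1, 32 without COL off replicate 2, 10 without COL on replicate 1, 7 without SI off replicate 1 and 3 without SI on replicate 1.

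Most of the genes that fell in COL were more abundant in SI than in COL organoids. Measured in the off libraries of the BRAF and BRAFp53 cultures, which entered none of the p53 contrasts, 16 of the 21 were higher in SI than in COL (42.4% of all genes tested) and 10 were at least 4-fold higher (2.34% of all). These ratios are of mean CPM scaled over all 24 libraries together, with 0.1 CPM added, so they differ from ratios of the levels scaled within each tissue. The median SI level was 3.75-fold that of COL, against 0.916-fold over all genes tested. Within the BRAF culture 16 were higher in SI and 10 at least 4-fold higher (45.2% and 1.97% of all genes), and within the BRAFp53 culture 18 and 12 (42.9% and 3.54%). Apoc3 was 38.7-fold higher in SI in the BRAF and 54.3-fold in the BRAFp53 culture, Apoa1 11-fold and 9.25-fold, and Sis 7.13-fold and 19.9-fold. The ratio of Aadac was 7.59-fold and 110-fold, and its COL off libraries were at 53.1 and 45.1 CPM in BRAF but at 5 and 4.07 CPM in BRAFp53. Ppp1r3b (0.233-fold and 0.955-fold) and 2610528A11Rik (0.143-fold and 0.218-fold) were lower in SI in both cultures, while H2-Q10, Selenbp1, Adora1 and Naaladl1 were higher in 1 culture and lower in the other. Of 19 markers of the colon's own absorptive cells, edgeR called none (4 at an unadjusted p under 0.05, against 8.34% of all genes). DESeq2 and limma-voom each called 2 lower, Cyp2c65 among them (1.71% and 0.195% called over all genes). Of the 19 markers, 15 were below 0 (49.4% over all genes). Without overlap, 8 were lower and 2 higher (19.6% and 19.4% over all genes), and the median was -0.25, or -0.42 without COL on replicate 1. Regulators that set intestinal identity, such as Cdx2 and Hnf4a, had a list median of -0.06 in COL over 23 genes, with 8 lower and 2 higher without overlap (19.6% and 19.4% over all genes). None was called by edgeR (6 at an unadjusted p under 0.05, against 8.34% of all genes) or limma-voom, and DESeq2 called Vdr lower (1.71% called over all genes). That median was -0.24 without off replicate 2, -0.16 without on replicate 1, -0.17 without on replicate 2 and -0.10 without off replicate 1.

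The BRAF culture received the same agent and carried no Trp53 allele to recombine, so its COL response was set beside that of the p53 culture, with which it shares no library. Of the 21 genes lower in COL p53, 15 were also called lower in COL BRAF (9.61% of all genes) and 17 in COL BRAFp53 (7.76%). The p53 and BRAF responses in COL differed for 855 genes (4.51%), among them 6 of the 21. That count of 855 ranged from 264 without COL p53 on replicate 2 to 1440 without COL p53 on replicate 1, and each of the 8 libraries moved it by more than 1.5 times. Aadac, Hsd17b13 and Ces1d fell less in the p53 than in the BRAF culture, with p53 minus BRAF differences of 1.24, 1.36 and 1.77 on the log2 scale (adjusted p = 0.02943, 0.02513 and 0.007278, edgeR). Apoa1, Slc13a2 and 2610528A11Rik fell in the p53 culture, with differences of -1.99, -2.18 and -1.21 (adjusted p = 0.004954, 0.006182 and 0.02407, edgeR), while their BRAF changes of 0.14, 0.65 and 0.01 did not pass the test. Among the higher genes, Fgf15 rose more in BRAF (difference -1.36, adjusted p = 0.04383, edgeR) and Zfp385a had a larger change in p53 (difference 3.25, adjusted p = 0.04237, edgeR). The remaining 15 lower genes had p53 minus BRAF values that missed the threshold, which does not show that the cultures responded alike.

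**Figure D4:**
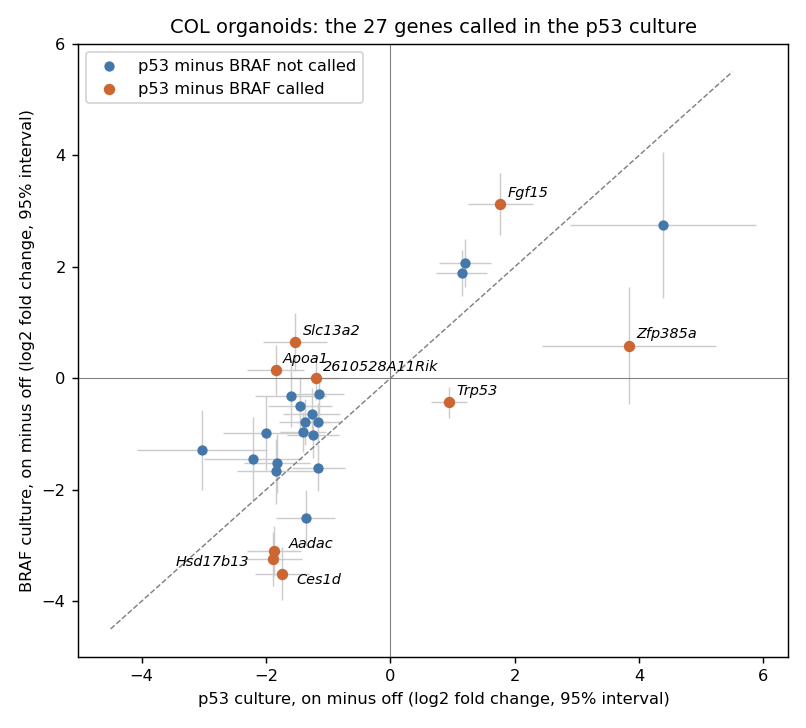
Log2 fold change of on against off in COL organoids of the p53 culture (x axis) and the BRAF culture (y axis) for the 27 genes called in the p53 culture, with 95% intervals; the dashed line marks equal change. Orange points with names are the 9 genes whose p53 minus BRAF difference passed the threshold, such as Apoa1 at -1.85 and 0.14 and Ces1d at -1.74 and -3.51.

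Other epithelial programmes were described by the counts of their members. Fetal and regenerative genes, which mark the immature epithelium of embryos and of healing gut, had 30 of 31 values above 0 in COL (50.1% over all genes) and a median of 0.65. Of these, 26 did not overlap between on and off, all higher (19.4% over all genes). None was called by edgeR or limma-voom, while 22 of 31 were higher at an unadjusted p under 0.05 (8.34% of all genes in either direction), DESeq2 called 12 higher, Anxa1 and Ly6a among them (1.71%), and edgeR with no filter on low counts called 20 of 32 higher (1.87%). Anxa1, a phospholipid-binding annexin, was at 809 and 930 CPM off and 1450 and 1170 CPM on, and Ly6a, the surface protein Sca-1, was at 586 and 744 CPM off and 1030 and 1010 CPM on (adjusted p = 0.12 and 0.17, edgeR). In SI both were below 1 CPM, Anxa1 at 0.133 and 0.369 CPM off and 0.626 and 0.556 CPM on. In SI, edgeR with no filter called Anxa10, Il1rn and Il33 higher (0.576%) and the other 3 tests called none. In the mean of both tissues edgeR and limma-voom called none of 31, DESeq2 called Anxa1, Il1rn, Il33, Krt7 and Ly6a higher (0.473% of all genes), and edgeR with no filter called 8 of 32 higher (1.39%). The SI median of this list was 0.27 over 27 genes and 0.0007243 without SI on replicate 1; over all SI genes, 50.6% had a value above 0 and 48.9% below. The COL median was 0.40 without on replicate 1 and 0.74 without on replicate 2. The sum over the 7 epithelial markers, 1 of which is on this list, was also highest in COL on replicate 1, at 30400 CPM against 20900 to 21200 CPM in the other 3 COL libraries; its part in the result was not tested.

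Interferon and antigen presentation genes had a COL median of -0.52, with 21 of 25 values below 0 (49.4% over all genes). EdgeR and limma-voom called none, with 8 at an unadjusted p under 0.05 in edgeR (8.34% over all genes), and DESeq2 called Ifi44, Ifit3 and Stat2 lower (1.71% called over all genes). Ifit1, an interferon-induced RNA-binding protein, was at 17 and 45.3 CPM off and 14.3 and 11.6 CPM on, so that off replicate 2 stood apart. Without that library the median was 0.02. Goblet genes (median 0.15), enteroendocrine genes (0.30), stem and Wnt genes (0.09) and G2 and M phase genes (-0.02) had no call by edgeR or limma-voom in COL, with 6 of 20, 3 of 22, 3 of 27 and 0 of 20 members at an unadjusted p under 0.05 (8.34% over all genes). DESeq2 called Fcgbp of the goblet list lower (1.71% called over all genes). None of these lists had a call by these 3 tools in SI, where edgeR found 0 of 18, 0 of 20, 2 of 26 and 0 of 20 at an unadjusted p under 0.05 (5.18% over all genes). With no filter on low counts (1.87% called over all genes), edgeR called 4 identity factors and 7 interferon genes lower, 3 colonocyte genes lower, 4 enteroendocrine genes higher, 1 goblet gene higher and 2 lower, and 1 stem and Wnt gene in each direction in COL. In SI that setting (0.576%) called 1 colonocyte gene higher and no member of the other 6 lists. The goblet, enteroendocrine, stem and Wnt, and G2 and M phase medians rested on single libraries: without on replicate 2 they were -0.02 for goblet, -0.05 for stem and Wnt and -0.14 for G2 and M phase genes. Without on replicate 1 they were 0.28 for goblet, 0.16 for stem and Wnt and 0.02 for G2 and M phase genes, and without off replicate 1 the enteroendocrine median was 0.63, against 0.19 without on replicate 2.

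**Figure D5:**
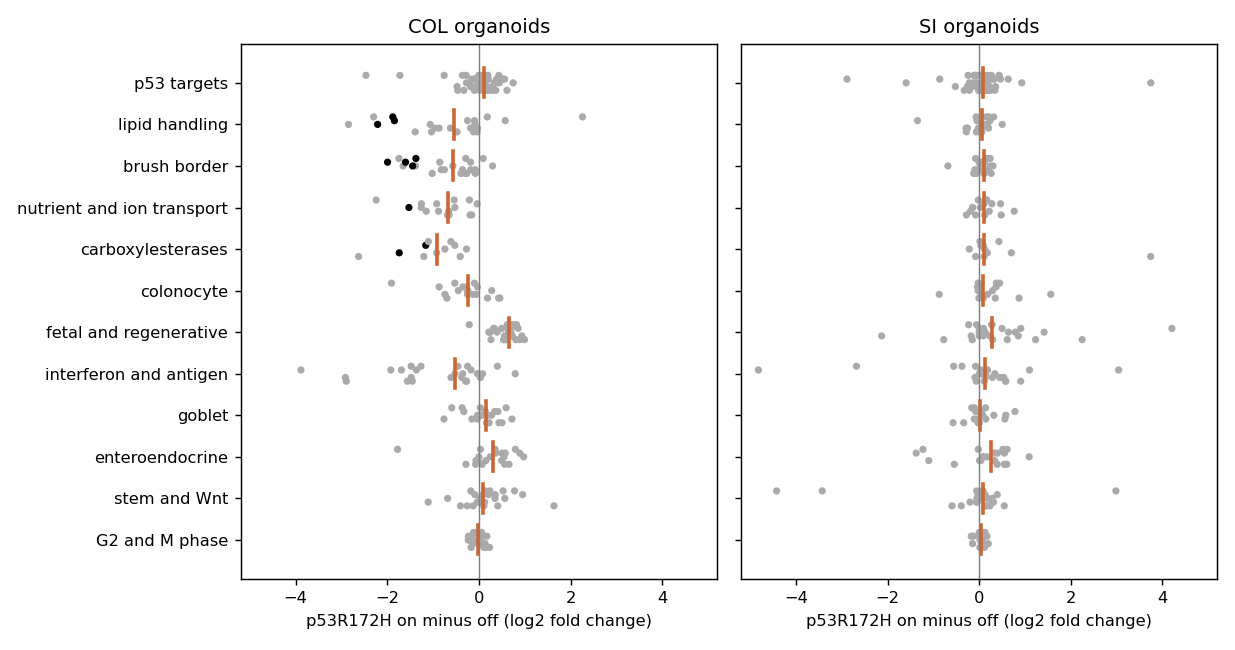
Log2 fold change of on against off for each tested member of 12 gene lists in COL (left) and SI (right); grey points are genes that missed the threshold, black points genes called by edgeR, and orange bars list medians. In COL the carboxylesterase median is -0.92 and the fetal and regenerative median 0.65; in SI all 12 medians lie between 0.02 and 0.27.

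Upstream sequences were read from RefSeq promoter windows (GRCm38.p6, 250 bases before to 50 after a start) for 16 of the 21 lower and 5 of the 6 higher COL genes. Searched on both strands were an HNF4-type motif (CAAAGTCCA), the nuclear receptor direct repeat 1 and the HNF1 palindrome by their standard forms, the CDX motif (TTTATGG), the AP-1 motif (TGACTCA or TGAGTCA), and pairs of p53 half-sites at most 13 bases apart. None was found in the 16 lower genes, against 0.603%, 0.0245%, 0.00815%, 2.25%, 5.16% and 0.0408% of 12263 windows of genes tested in COL. With 16 windows and shares this low, finding none says little. The HNF4-type, direct repeat, CDX and AP-1 motifs were searched as fixed letters, so sites that differ by a base were not counted. Of the 5 higher genes, E330020D12Rik held the CDX motif (20%). Of 44 p53 targets with a window, Cdkn1a held the half-site pair (2.27%), and 13 held a single half-site (29.5%, against 8.42% of windows of tested genes). The 250 bases before the RefSeq start are shown for Trp53, which was called in COL and in the mean response, and for Apoa1, Aadac and Hsd17b13, which had the smallest adjusted p in COL beside Ces1d. The stretch of Aadac lies inside the GENCODE gene (chromosome 3, 60025717 to 60040160), which starts further upstream, and those of Apoa1 and Hsd17b13 overlap the start of theirs. Capitals mark a single p53 half-site in the Trp53 window; the other 3 have none. A match is a description of letters and not of binding.
Trp53, chr11:69580109-69580358, plus strand: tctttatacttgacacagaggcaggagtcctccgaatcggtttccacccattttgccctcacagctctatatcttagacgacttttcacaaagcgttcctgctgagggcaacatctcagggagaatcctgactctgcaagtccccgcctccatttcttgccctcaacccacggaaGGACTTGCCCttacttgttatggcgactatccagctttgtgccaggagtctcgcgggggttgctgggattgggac
Apoa1, chr9:46228380-46228629, plus strand: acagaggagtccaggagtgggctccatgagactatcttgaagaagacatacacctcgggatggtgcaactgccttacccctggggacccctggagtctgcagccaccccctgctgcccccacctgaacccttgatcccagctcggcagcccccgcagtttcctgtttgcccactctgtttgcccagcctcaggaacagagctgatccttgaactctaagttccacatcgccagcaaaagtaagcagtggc
Aadac, chr3:60031538-60031787, plus strand: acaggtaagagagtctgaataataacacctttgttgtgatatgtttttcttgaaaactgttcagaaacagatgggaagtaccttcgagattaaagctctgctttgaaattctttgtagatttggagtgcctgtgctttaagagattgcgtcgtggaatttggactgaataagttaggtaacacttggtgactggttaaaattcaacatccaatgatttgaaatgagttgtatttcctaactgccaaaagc
Hsd17b13, chr5:103977389-103977638, minus strand: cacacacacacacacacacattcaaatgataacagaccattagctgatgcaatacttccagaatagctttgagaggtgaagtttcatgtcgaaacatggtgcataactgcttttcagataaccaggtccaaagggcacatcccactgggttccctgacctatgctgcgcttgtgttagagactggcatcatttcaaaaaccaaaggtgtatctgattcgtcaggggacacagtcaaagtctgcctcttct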

How the data were processed

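Raw read counts per gene, deposited by the authors without normalization, were the values used. Per the labels, reads were trimmed with Trimmomatic 0.36 and aligned with STAR 2.5.2b. The build was mm10 per the study's methods (the labels also name mm9); annotation release and strand setting are not given in the sources used here. Of 45706 gene identifiers, 45143 matched a symbol of the table given. Counts were scaled by TMM and filtered with filterByExpr, then fitted with edgeR 4.0.16 (R 4.3.3) by its quasi-likelihood test, over 12 libraries within a tissue and 24 jointly, with Benjamini-Hochberg adjusted p under 0.05 as the call. DESeq2 1.42.0, limma-voom 3.58.1 (the study's methods name limma), other filters, scalings and sample sets were tried. Positions are from GENCODE on GRCm38. Named were Trp53, members of its loop and targets, called genes with a symbol that is not a predicted one, up to 6 members of each other list per tissue with the smallest p, and for SI up to 10 per direction by smallest p, average log2 CPM of at least 3 and no overlap. Members and lists were chosen with earlier results of these data known. Scripts were tested on simulated data.

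The libraries were not treated as paired by replicate number. Same-numbered on and off libraries deviated with a correlation across genes of 0.05 in COL and -0.06 in SI. A value near 0 over all genes cannot exclude a pairing that touches some genes. No replicate pair was a library deposited again: chi-square per degree of freedom between duplicates was 20.54 to 92.45. With 2 libraries per group, precision rests on spread shared across the fit. 3 lists of genes (hypoxia, cholesterol synthesis, respiratory chain) were added after the values were seen.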

Additional observations from a re-analysis of the deposited data

Results flagged for a closer look

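The response to p53R172H differed between COL and SI, by the interaction test in edgeR, for 22 genes with a symbol that is not a predicted one. The COL minus SI differences in log2 fold change of those also called in COL were -1.832 for Aadac, -2.706 for Apoc3, -2.075 for Apoa1, -2.024 for Hsd17b13, -1.486 for H2-Q10, -3.098 for Plbd1 and -1.913 for Ces1d. They were -1.626 for Cyp2u1, -1.814 for Otc, -1.571 for Anpep, -1.388 for Selenbp1, -1.552 for Slc13a2, -2.094 for Sis, -1.545 for Ppp1r3b and 4.645 for Zfp385a. The other 7 were not called in COL itself by edgeR with its filter on low counts: Cfap57, a cilia protein, at -4.132, Apol7a, an apolipoprotein L, at -1.95, Slc30a10, a manganese exporter, at -2.484, Ankrd37, a hypoxia-induced ankyrin repeat protein, at -1.799, Gstm2, a glutathione transferase, at -0.8843, Lss, the lanosterol synthase of cholesterol synthesis, at -0.9561, and Psd, an exchange factor for Arf6, at 2.729. The COL calls of DESeq2 and of edgeR with no filter included Ankrd37 and Lss, both lower (1.71% and 1.87% called over all genes). These 7 were called in 6 to 10 of 15 alternatives without a limit on the fold change. Lss stood at 291 and 247 CPM off and 192 and 148 CPM on in COL, and at 174 and 177 CPM off and 221 and 211 CPM on in SI. The libraries of Lss did not overlap in either tissue, and its direction was opposite in them.

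A pair of gene lists, chosen after the values were seen and for this pattern, had medians of opposite sign in the tissues. No member of either was called in COL or SI by edgeR with its filter on low counts or by limma-voom, and the difference between tissues was not tested for the lists. The hypoxia list had a median of -0.3642 in COL and 0.2379 in SI, and the cholesterol synthesis list had a median of -0.2401 in COL and 0.2219 in SI, on the log2 scale. Medians without single libraries were not computed for these lists. In COL, hypoxia genes stood at a median of 0.3898 and -0.001418 off and -0.09493 and -0.2594 on (log2, relative to each gene's mean over these libraries). Off replicate 1 thus stood apart. Tissue, donor animal, culture medium, 4-HT dose and time after recombination cannot be told apart in these differences.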

How the results depend on the processing

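On leaving out 1 library at a time, the number of calls ran from 0 to 56 for the COL response, from 3 to 28 for the mean response, from 3 to 46 for COL minus SI, from 264 to 1440 for p53 minus BRAF in COL, from 1881 to 3927 in SI, from 2 to 9 for genes shared by both tissues and from 0 to 32 for genes changed in COL only; it was 0 throughout for the SI response. With no filter on low counts, 569 genes were called in COL, 155 in SI, 443 in the mean and 488 in COL minus SI, 1958 differed from BRAF in COL, 105 were shared and 255 were COL only. DESeq2 gave 324, 65, 93, 162, 1895, 37 and 105 for the same results, and its COL calls included all 27 of edgeR. With limma-voom, SI had 1 call, the mean response 4 and the shared genes numbered 1. With a log2 fold change of at least 1, the mean response had 2 calls, p53 minus BRAF in SI 1569 and the shared genes numbered 1. With only the p53 libraries, there were 14 calls in COL, 17 in SI, 15 in COL minus SI, 1 shared and 8 COL only. The additive model of tissue and state called 1 gene. The cause of these shifts was not tested.

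The replicate numbers are no pairing in the labels or methods. With the replicate block, the COL response had 22 calls, SI 0, the mean response 4 and COL minus SI 28. That fit kept 16 of the 27 COL calls and 11 of the 16 genes changed in COL only. The correlations of same-numbered libraries were 0.05 in COL and -0.06 in SI. A fit of SI without BRAF on replicate 1, whose Xist level stood apart at 15.4 CPM, was chosen after seeing the data and called 0 genes.

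For named genes, 18814 of 20496 alternative values kept direction and side of the threshold, 265 lost the call, 497 gained it, and 903 changed sign, with no call on either side. Only values called in the main fit could lose the call, so the 265 are not to be read as a share of the 20496. For called genes, the tallies given above show how often a call held. Of 312 list medians under alternatives, 45 changed sign, 39 of them on leaving out 1 library and 6 with other scaling or no filter. The goblet median in COL ran from -0.0155 (without on replicate 2) to 0.2836, the antimicrobial one from -1.969 to 0.06434 (without on replicate 1), the stress response one from -0.02391 (without off replicate 2) to 0.08341, with -0.008756 without on replicate 1 and -0.01523 without on replicate 2, and the smooth muscle one from -0.04238 (without on replicate 1) to 1.75. The SI median of the sex markers ran from 0 (without on replicate 1) to 3.85.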

Other observations

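Of the 20 hypoxia genes, 18 had a value below 0 in COL (49.4% over all genes) and 13 of them did not overlap between on and off, all lower (19.6% over all genes). In SI all 20 had a value above 0 (50.6%) and 16 did not overlap, all higher (18.1% over all genes). The summed level was 12500 and 10200 CPM off and 9760 and 8410 CPM on in COL, and 10700 and 11600 CPM off and 13400 and 12300 CPM on in SI. Ankrd37 was at 75.4 and 44.6 CPM off and 28.3 and 27.8 CPM on in COL, and at 22.6 and 22.3 CPM off and 41.3 and 31.8 CPM on in SI. None of the 20 was called in either tissue by edgeR or limma-voom, with 13 lower in COL and 6 higher in SI at an unadjusted p under 0.05 in edgeR (8.34% and 5.18% over all genes); DESeq2 called 5 lower in COL and 2 higher in SI (1.71% and 0.386%), and edgeR with no filter on low counts called 6 lower in COL and 4 higher in SI (1.87% and 0.576%).

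All 19 cholesterol synthesis genes had a value below 0 in COL and 17 had one above 0 in SI (49.4% and 50.6% over all genes), with none called in either by edgeR or limma-voom. At an unadjusted p under 0.05 in edgeR, 8 were lower in COL and 5 higher in SI (8.34% and 5.18% over all genes), and DESeq2 called 4 lower in COL and none in SI (1.71% and 0.386%). With no filter on low counts, edgeR called 3 lower in COL and none in SI (1.87% and 0.576%). Their sum was 5660 and 5010 CPM off and 4520 and 3950 CPM on in COL, and 3540 and 3650 CPM off and 4380 and 4000 CPM on in SI. The 16 respiratory chain genes had medians of -0.08 in COL and -0.04 in SI, although Cox5a, a subunit of cytochrome c oxidase, was at 52.4 and 107 CPM off and 11.4 and 13.3 CPM on in SI. Cox5a also differed widely between replicates of a group. It was at 13.5 and 59.9 CPM in the on libraries of the SI BRAFp53 culture and at 27.5 and 6.35 CPM in the off libraries of the COL BRAF culture. EdgeR and limma-voom called none of the 16, with 1 lower in COL and 3 lower in SI at an unadjusted p under 0.05 in edgeR (8.34% and 5.18% over all genes). DESeq2 and edgeR with no filter on low counts both called Cox5a, Cyc1 and Ndufab1 lower in SI (0.386% and 0.576%), and the latter also called Ndufab1 lower in COL (1.87%). All 3 lists were chosen after the values were seen, so these counts are a description.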
